A study of Rattus norvegicus with 9 samples.

Results

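The heat shock proteins and DnaJ co-chaperones were taken as the probe sets of the array that are annotated with a single gene symbol beginning with Hspa, Hspb, Hsp90, Hspd, Hspe, Hsph or Dnaj, or with the symbol Cryab, Bag3, Hsf1 or Hsf2. These were 105 of 31042 probe sets, and they represented 68 of the 14217 genes that are named alone by a probe set. A further 6 probe sets carry several symbols, among them those of Hspa8, Hsp90aa1 and Hspa1b, and were left out by that choice. After probe sets below the 40th percentile of mean signal had been set aside, 89 of the 105 were tested, and they represented 64 genes. The genes Dnajb13, Dnajb3, Dnajb7 and Hspa4l had no tested probe set.

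The heat shock proteins are molecular chaperones, which bind unfolded protein segments and help them to fold, be held soluble or be handed on for breakdown. HSP70 proteins work through cycles of ATP hydrolysis that are started by DnaJ proteins (also called HSP40 or J proteins) and ended by exchange factors such as the HSP110 proteins. HSP90 proteins fold clients that include the glucocorticoid and androgen receptors, and small heat shock proteins such as alpha-B crystallin (Cryab) hold unfolded protein in an ATP-free way and are abundant in striated muscle. The transcription factor HSF1 switches on the inducible members in the cytosol, whereas the members of the endoplasmic reticulum (ER) answer to the unfolded protein response.

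The RNA came from the gastrocnemius, a calf muscle of mainly fast fibres, of male Wistar rats of 250 g. Of the 3 groups of 3 animals, one received dexamethasone, a synthetic glucocorticoid, together with testosterone (called the combination below), another received dexamethasone alone, and the third received vehicle. All were infused from Alzet osmotic pumps for 7 days with propylene glycol as the solvent, and the dexamethasone dose was 0.7 mg/kg/day. The testosterone dose reads 28 mg/kg/day in the sample labels and 20 mg/kg/day in the series design, and which of them holds was not settled. The animals' age is not given in the sources used here, and the labels name no removal of testes or adrenals in any group.

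Each array measured 1 animal. Dexamethasone replicate 3 and combination replicate 3 stood apart in the ratio of 3′ to 5′ Gapdh probe signal. It was 6.22 in combination replicate 3 and 4.94 in dexamethasone replicate 3, against 1.06 to 1.17 in the other 7 arrays. Their poly-A spikes minus hybridisation spikes were -2.07 and -2.86 on the log2 scale, against 0.21 to 2.99 in the other arrays. The parts of RNA quality and of labelling in these values were not tested. The poly-A spikes and the deposited scale sort the arrays into technical batch A (combination replicate 1, dexamethasone replicate 1, vehicle replicates 1 and 3), batch B (replicate 2 of each group) and batch C (those 2 arrays). Batch C holds no vehicle array. Fast fibre genes were high in every array (summed signals of 293819 to 308121 with the combination, 276943 to 284128 with dexamethasone and 304006 to 305894 with vehicle); these genes mark the fibres that make up most of this muscle. In whole muscle RNA, fewer cells of a type and less RNA per cell cannot be told apart.

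Promoters of the members were searched for fixed forms of the control sequences of these programmes. Of 68 member genes, 55 matched a promoter of 250 bases before to 50 bases after the start in RefSeq (build GRCr8). The heat shock element was searched as GAA, any 2 bases, TTC, any 2 bases, GAA, or its reverse complement, and stood in 4 of the 55 (7.27%), against 202 of 27457 promoters of all genes (0.736%). The ER stress element, searched on both strands as CCAAT, any 9 bases, CCACG and added to the search after the expression values had been seen, stood in 3 of the 55 (5.45%), against 21 of all promoters (0.0765%). The glucocorticoid element, AGAACA, any 3 bases, TGTTCT, was in 0 of the 55 and in 2 of all promoters. A match is a run of letters in this window and not a measured binding site. A missing match does not show that a gene lacks the element, since other forms and positions were not searched.

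The 3 promoters with an ER stress element are shown because Dnajc3 had the lowest adjusted p of the family, in dexamethasone against vehicle, and shares the element with Hspa5 and Hsp90b1, whose differences there were small. In all of the sequences the capitals mark the matches. Hsp90b1 holds the element on each strand.
Dnajc3, chr15:102432417-102432716, plus strand: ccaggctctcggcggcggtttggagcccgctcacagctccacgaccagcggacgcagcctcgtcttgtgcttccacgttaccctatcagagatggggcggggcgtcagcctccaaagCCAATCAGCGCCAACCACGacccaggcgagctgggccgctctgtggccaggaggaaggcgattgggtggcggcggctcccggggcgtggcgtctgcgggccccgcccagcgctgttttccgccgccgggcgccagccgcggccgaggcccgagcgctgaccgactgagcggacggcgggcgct
Hspa5, chr3:38452766-38453065, plus strand: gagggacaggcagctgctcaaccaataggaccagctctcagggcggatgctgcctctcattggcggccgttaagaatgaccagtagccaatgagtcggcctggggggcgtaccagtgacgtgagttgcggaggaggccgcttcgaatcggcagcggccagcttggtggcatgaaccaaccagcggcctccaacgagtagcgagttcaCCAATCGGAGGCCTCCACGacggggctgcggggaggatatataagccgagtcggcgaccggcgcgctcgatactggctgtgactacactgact
Hsp90b1, chr7:23012244-23012543, minus strand: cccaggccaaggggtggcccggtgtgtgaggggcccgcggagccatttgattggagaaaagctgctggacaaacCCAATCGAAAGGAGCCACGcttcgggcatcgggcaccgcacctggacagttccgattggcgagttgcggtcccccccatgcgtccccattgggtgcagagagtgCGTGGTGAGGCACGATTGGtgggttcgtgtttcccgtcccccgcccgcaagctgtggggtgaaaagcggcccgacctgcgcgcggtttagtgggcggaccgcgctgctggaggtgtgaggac

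The promoters with a heat shock element are shown to set their genes beside the values of Hsf1 below. Hspe1 and Hspd1 lie head to head, and the window given for Hspe1 also holds the 2 overlapping matches found for Hspd1.
Hspe1, chr9:64084077-64084376, plus strand: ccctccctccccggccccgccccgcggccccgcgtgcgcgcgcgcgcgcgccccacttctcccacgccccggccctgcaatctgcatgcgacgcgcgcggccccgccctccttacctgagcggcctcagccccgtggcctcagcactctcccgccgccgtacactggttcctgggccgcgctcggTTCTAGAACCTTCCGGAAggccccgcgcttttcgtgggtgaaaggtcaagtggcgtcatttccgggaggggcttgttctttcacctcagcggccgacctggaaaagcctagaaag
Hsph1, chr12:10427118-10427417, plus strand: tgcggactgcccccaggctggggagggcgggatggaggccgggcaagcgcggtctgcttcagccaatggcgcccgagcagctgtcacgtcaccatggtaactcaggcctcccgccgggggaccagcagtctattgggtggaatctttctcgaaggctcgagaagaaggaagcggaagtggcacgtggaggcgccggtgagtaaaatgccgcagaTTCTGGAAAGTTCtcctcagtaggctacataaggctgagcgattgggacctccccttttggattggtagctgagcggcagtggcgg
Dnaja1, chr5:60638154-60638453, plus strand: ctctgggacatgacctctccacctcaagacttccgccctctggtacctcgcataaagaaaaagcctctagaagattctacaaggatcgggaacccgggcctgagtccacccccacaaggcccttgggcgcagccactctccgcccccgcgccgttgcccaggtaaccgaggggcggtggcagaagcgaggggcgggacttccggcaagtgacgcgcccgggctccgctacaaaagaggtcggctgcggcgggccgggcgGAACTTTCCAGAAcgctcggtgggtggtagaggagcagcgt

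No member of the family passed the test between dexamethasone and vehicle. By limma's moderated test with Benjamini-Hochberg adjustment over 18625 probe sets, 0 of the 89 member probe sets were higher and 0 lower than with vehicle at the threshold of 0.05, while 0.569% of all tested probe sets were higher and 0.483% lower. At an unadjusted p under 0.05, 6 members were higher (6.74%, against 7.88% of all probe sets) and 0 lower (against 7.57%). The median log2 change, the dexamethasone mean minus the vehicle mean of normalized log2 signals, was 0.07 over the members and 0.01 over all tested probe sets. It was above 0 for 53 members and below 0 for 36, against 51.2% and 48.8% of all probe sets. With batch as a block the counts were again 0 and 0 (0.44% and 0.521% of all probe sets), and without batch C they were also 0, while 460 of all probe sets were called there. The member count was 2 with a pseudocount of 64, 3 with a filter at the 60th percentile and 4 under robust variance with an intensity trend, all higher and all from Dnajc3, Dnajb12, Hsf1 and Dnajb9. The calls over all probe sets were also more under these settings, 414, 469 and 510, beside 196 in the fit reported here. The arrays of the groups did not overlap for 9 members that were higher (10.1%, against 12.5%) and 3 that were lower (3.37%, against 10.4%).

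**Figure D1:**
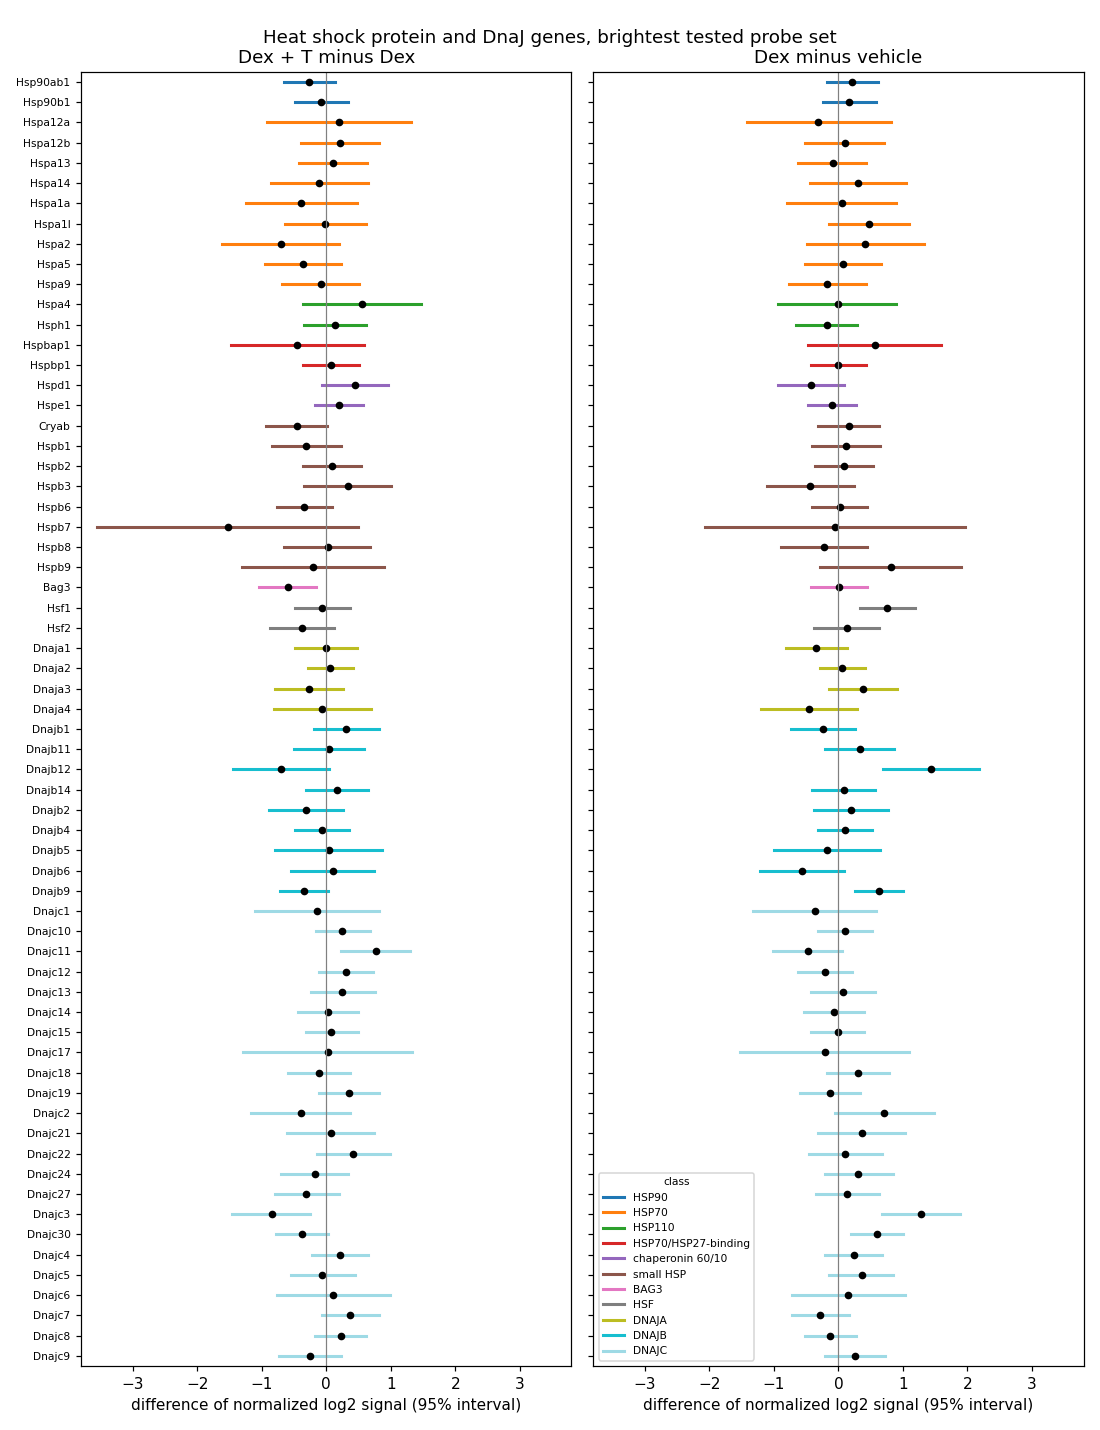
Difference of normalized log2 signal for the 64 genes with a tested probe set, the combination minus dexamethasone on the left and dexamethasone minus vehicle on the right. Points are the estimates of the fit and bars their 95% intervals without adjustment for the number of genes, coloured by class; in the right panel the bars of Dnajb12, Dnajc3, Dnajb9, Hsf1 and Dnajc30 lie above 0.

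A missed threshold does not show that the genes stayed level, and the intervals say how far each could have moved. Over the 64 genes, each represented by its brightest probe set, the 95% interval of the change with dexamethasone reached a median of 0.52 to either side on the log2 scale (lowest 0.35, highest 2.02). For 42 of the 64 genes the interval lay wholly between -1 and 1, so that a change of 2-fold or more lay outside it.

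By their brightest probe sets, the genes with the largest differences between dexamethasone and vehicle were Dnajb12 and Dnajc3, DnaJ proteins of the ER. Dnajc3 encodes p58IPK, an ER-resident cofactor of the HSP70 protein BiP that was first known as an inhibitor of the kinases PKR and PERK. Its signal was 10.48, 9.77 and 10.3 with dexamethasone, against 8.89, 8.8 and 9.02 with vehicle. Every dexamethasone array was thus above every vehicle array, by 1.28 ± 0.27 on the log2 scale (SE, n = 3 per group), or 2.43-fold. The adjusted p was 0.0628, and 0.0648 with batch as a block. Within batch A the difference was 1.53 and within batch B 0.97.

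Dnajb12, a J protein anchored in the ER membrane that helps dispose of misfolded membrane proteins, had a difference of similar size. Its signal was 10.06, 9.33 and 9.22 with dexamethasone, against 8.6, 8.26 and 7.44 with vehicle, again without overlap. The log2 change was 1.43 ± 0.33, or 2.7-fold, with an adjusted p of 0.0812. Batch A alone gave 2.04 and batch B alone 1.07. A second probe set of the gene gave 1.13 ± 0.3 (adjusted p = 0.113), with signals of 8.19, 7.93 and 7.97 with dexamethasone, against 7.18, 6.38 and 7.15 with vehicle.

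Dnajb9 (ERdj4), an ER-resident J protein that represses the stress sensor IRE1, had the tightest replicates of these. It stood at 10.77, 10.71 and 10.77 with dexamethasone, against 10.19, 10.03 and 10.14 with vehicle. The log2 change was 0.63 ± 0.17, a 1.55-fold difference, and the adjusted p was 0.111. Taken within batches, it was 0.6 (A) and 0.68 (B).

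The remaining ER chaperones were closer to their vehicle level. Hspa5 encodes BiP, the main HSP70 of the ER and the usual marker of the unfolded protein response, and its promoter carries the ER stress element shown above. It had signals of 11.98, 11.37 and 11.92 with dexamethasone, against 11.64, 11.58 and 11.83 with vehicle, a log2 change of 0.07 ± 0.26 with a 95% interval from -0.52 to 0.66. Hsp90b1 (GRP94), the HSP90 of the ER, had a log2 change of 0.17 ± 0.18, and Dnajb11 (ERdj3), a soluble partner of BiP, one of 0.33 ± 0.24. For both the arrays of the groups overlapped. Of the 10 ER genes with a tested probe set, 8 had a log2 change above 0 and 2 below it, and the median was 0.14 (lowest -0.37, for Dnajc1, highest 1.43). The 3 genes with the ER stress element ranged from 0.07 to 1.28. The grouping of genes by compartment was made with the values known and serves for description only.

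**Figure D2:**
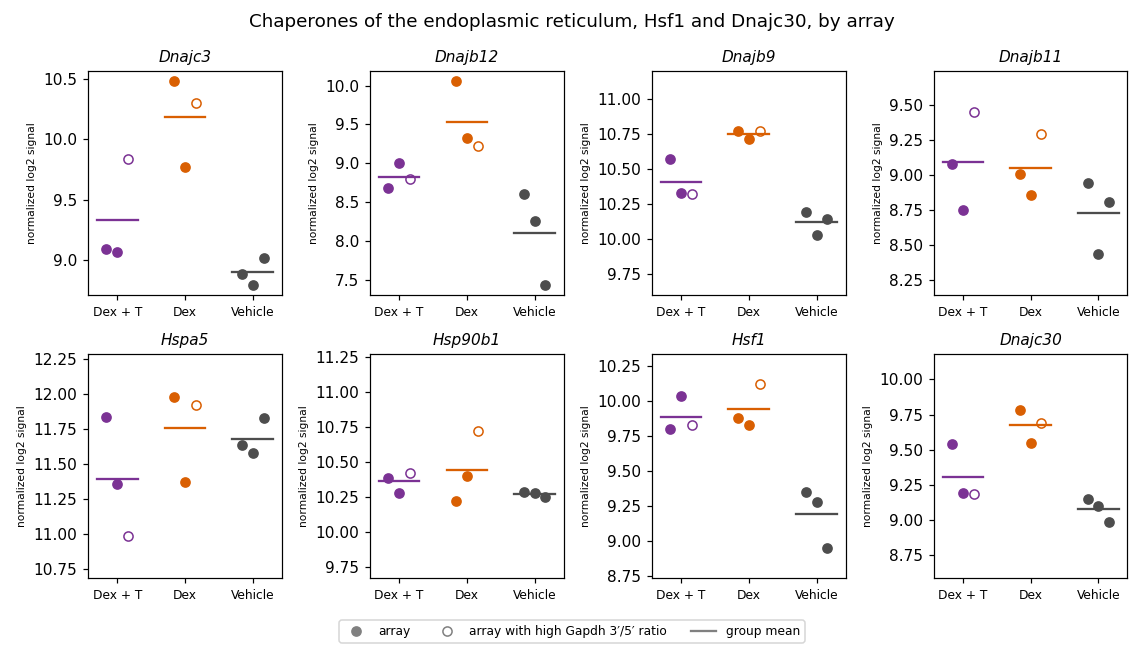
Normalized log2 signal in each of the 9 arrays for 6 ER chaperones, Hsf1 and Dnajc30, with the combination (Dex + T), dexamethasone (Dex) and vehicle from left to right; lines are group means and open circles the arrays with a Gapdh 3′ to 5′ ratio above those of the other 7. For Dnajc3, Dnajb12, Dnajb9, Hsf1 and Dnajc30 all dexamethasone arrays lie above all vehicle arrays, and for Hspa5 and Hsp90b1 they overlap.

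Other ER folding genes, from a list of 19 that were all measured, did not pass either (0 higher, 0 lower, median 0.01). Those furthest above vehicle were Herpud1, which serves ER-associated degradation (log2 change 1.2 ± 0.28, adjusted p = 0.0864), and the ER exchange factor Hyou1 (1.09 ± 0.27, adjusted p = 0.0975). The furthest below was Serpinh1, a chaperone specific to collagen (-1.53 ± 0.38, adjusted p = 0.0959). Fibroblast markers moved with it: 1 of 12 passed, Mfap5, which fell by 1.75 (adjusted p = 0.0338, and 0.0582 with batch as a block), the list median was -1.53, and their summed signal was 9335 to 32279 with dexamethasone, against 40271 to 61161 with vehicle. Their part in the value of Serpinh1 was not tested.

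Hsf1, the gene of the master factor of the heat shock response, was higher in every dexamethasone array than in any vehicle array. The signals were 9.88, 9.83 and 10.12 with dexamethasone, against 9.35, 9.28 and 8.95 with vehicle. The log2 change of 0.76 ± 0.19, or 1.69-fold, had an adjusted p of 0.0964. Batch A alone gave 0.73 and batch B alone 0.56. Hsf2, a related factor, had a log2 change of 0.13 ± 0.22 by its brightest probe set, with overlapping groups. A dimmer probe set, also overlapping, gave 0.58 ± 0.45, and 0.94 with batch as a block (adjusted p = 0.078). Its signal in the arrays of batch C differed by -1.25 from that in the other hormone-treated arrays. The remaining tested probe set gave 0.05 ± 0.27.

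The heat-inducible chaperones of the cytosol had overlapping groups by their brightest probe sets. A dimmer probe set of Dnajb1 was lower in every dexamethasone array than in any vehicle array (-0.75 ± 0.52, but -0.24 with batch as a block). Hspa1a, the inducible HSP70, had signals of 8.72, 10.04 and 9.79 with dexamethasone, against 9.53, 9.46 and 9.41 with vehicle, and dexamethasone replicate 1 was the lowest of the 6. Its sequence is close to that of Hspa1b and Hspa1l, and signal from these copies may be shared. Hsph1, an HSP110 exchange factor, had a log2 change of -0.18 ± 0.21, Dnaja1, a cytosolic J protein, one of -0.34 ± 0.21 and Dnajb1, the classical HSP40, one of -0.24 ± 0.22. The 4 genes whose promoters matched this form of the heat shock element, Dnaja1, Hspd1, Hspe1 and Hsph1, lay between -0.42 and -0.1, with adjusted p from 0.416 to 0.826. Over 11 heat-inducible genes and their control genes the median was 0.01, with 6 above 0 and 5 below.

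Constitutive chaperones of the cytosol had intervals that include 0. Hsp90ab1, the constitutive HSP90 that binds steroid receptors, had signals of 13.81, 13.81 and 13.62 with dexamethasone, against 13.43, 13.65 and 13.52 with vehicle (log2 change 0.21 ± 0.17, 95% interval -0.18 to 0.61). The log2 change of Hspa4, an HSP110 protein, was -0.01 ± 0.41, that of Dnaja2 0.06 ± 0.16 and that of Dnajb4 0.1 ± 0.19. Hspa2 and Hspa1l, HSP70 genes known best from testis, had changes of 0.42 ± 0.4 and 0.48 ± 0.28. Dnajb5, a J protein of the Dnajb1 type, stood at -0.18 ± 0.37, and Dnajb2, which binds ubiquitinated clients, at 0.19 ± 0.26. Dnajb6, whose human gene is mutated in a limb-girdle myopathy, had the largest negative value of any brightest probe set, -0.56 ± 0.29 (adjusted p = 0.395), with 8.78, 9.27 and 9.35 in dexamethasone arrays, against 10.15, 9.52 and 9.42 in vehicle arrays, so that its groups did not overlap.

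The other largest values were those of the testis small heat shock gene Hspb9 (0.81 ± 0.49, adjusted p = 0.475) and of Dnajc2, a ribosome-bound J protein (0.71 ± 0.34, adjusted p = 0.368). On the negative side they were Dnajc11, a mitochondrial J protein (-0.47 ± 0.24, adjusted p = 0.386), Dnaja4 (-0.45 ± 0.33), Hspb3 (-0.44 ± 0.3) and Hspd1 (-0.42 ± 0.22). With batch as a block Dnaja4 stood at -0.24 and Hspb3 at -0.68, and within batch B Dnaja4 (0.17) and Hspb9 (-0.41) had the opposite sign. The 2 tested probe sets of Dnajc11 disagreed, the other standing at 0.44 ± 0.22, so that no direction can be given for the gene.

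Mitochondrial chaperones had no common direction. Hspd1 and Hspe1 encode the chaperonins HSP60 and HSP10 of the matrix and share a promoter. Hspd1 had 11.68, 12.17 and 12.53 with dexamethasone, against 12.51, 12.58 and 12.55 with vehicle, and dexamethasone replicate 1 was the lowest of the 6. Hspe1 stood at 13, 12.79 and 13.05 with dexamethasone, against 12.99, 13.03 and 13.11 with vehicle. Hspa9 (mortalin), the matrix HSP70, had a log2 change of -0.17 ± 0.27. Dnajc30, a J protein linked to the ATP synthase, stood above vehicle in every array with 9.78, 9.55 and 9.69 with dexamethasone, against 9.15, 9.1 and 8.98 with vehicle, a log2 change of 0.6 ± 0.18 (adjusted p = 0.154). Of 8 mitochondrial genes 2 were above 0 by the brightest probe set, Dnajc30 and the J protein Dnaja3 (0.38 ± 0.23). The other 6 were below, and the median was -0.12. These 6 include Dnajc11, whose other tested probe set stood at 0.44. They also include Hspa9, which had a dimmer probe set at 0.39 and further ones at -0.39. The list of 10 other mitochondrial folding genes had a median of 0.17 and no call.

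By their brightest probe sets, the small heat shock proteins of muscle had overlapping dexamethasone and vehicle groups, whereas those of a dimmer Hspb8 probe set did not overlap (-0.94 ± 0.88). Cryab, which protects desmin and other filaments, had signals of 14.21, 14.44 and 14.51 with dexamethasone, against 14.39, 14.13 and 14.16 with vehicle (log2 change 0.16 ± 0.21, 95% interval -0.31 to 0.63). The log2 change was 0.02 ± 0.19 for Hspb6 (HSP20), 0.12 ± 0.23 for Hspb1 (HSP27), 0.08 ± 0.2 for Hspb2, which forms a complex with Hspb3, and -0.23 ± 0.29 for Hspb8, the partner of BAG3. Across the 7 genes the median was 0.02. Hspb7, a filamin-binding member, spread so widely that little can be said of it: its dexamethasone signals were 12.06, 13.25 and 10.07, against 12.24, 11.66 and 11.62 with vehicle. Bag3, which links HSP70 and Hspb8 to selective autophagy, had 11.49, 11.41 and 11.34 with dexamethasone, against 11.65, 11.19 and 11.38 with vehicle, a log2 change of 0.01 ± 0.2.

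Adding testosterone to dexamethasone gave no call in the family. Of the 89 member probe sets 0 were higher and 0 lower in the combination than with dexamethasone at the adjusted threshold in limma, against 0.0698% and 0.043% of all tested probe sets. At an unadjusted p under 0.05 there was 1 higher (1.12%, against 5.59%) and there were 2 lower (2.25%, against 5.36%). The groups did not overlap for 4 members in each direction (4.49% each, against 7.24% higher and 7.35% lower). The median was -0.06 over the members and 0 over all probe sets, with 40 members above 0 and 49 below (49.9% and 50.1% of all probe sets). With batch as a block the counts stayed at 0 (0.0698% and 0.0483% of all probe sets). This comparison shares the dexamethasone arrays with the one above, so the values of a gene in them are not independent.

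Bag3 was below dexamethasone and below vehicle in every combination array. Its signals were 10.78, 11.04 and 10.62 with the combination, next to the dexamethasone and vehicle values given above, of which the lowest was 11.19. The log2 change from dexamethasone was -0.6 ± 0.2 (1.52-fold lower, adjusted p = 0.302). Within batches it was -0.72 (A), -0.37 (B) and -0.72 (C). From vehicle it was -0.59 ± 0.2 (adjusted p = 0.802), or -0.73 (A) and -0.14 (B) within batches. Its client filamin C, Flnc, had a log2 change of -0.99 ± 0.28 from dexamethasone (adjusted p = 0.226), with signals of 11.78, 12.28 and 11.36 in the combination, against 13.21, 12.81 and 12.38 with dexamethasone. Of 7 measured partners of this autophagy route none was called in that comparison, and their median was -0.3. With dexamethasone alone 1 of the 7 rose relative to vehicle, Map1lc3a, which encodes an LC3 protein of the autophagosome membrane (1.28, adjusted p = 0.0324, and 0.0553 with batch as a block).

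Other large negative values included those of Hspb7 and of the ER genes Dnajc3 and Dnajb12. Over the 10 ER genes the median was -0.11, with 4 above 0 and 6 below. Dnajc3 stood at 9.09, 9.07 and 9.84 with the combination, against the dexamethasone values above, which put 2 of the 3 combination arrays below every dexamethasone array. The log2 change was -0.85 ± 0.27 (adjusted p = 0.285). Within batches it was -1.39 (A), -0.71 (B) and -0.46 (C). Dnajb12 had 8.68, 9.01 and 8.8, all below the dexamethasone arrays (-0.71 ± 0.33, adjusted p = 0.483). Its second probe set overlapped, with 7.08, 7.62 and 8.06 with the combination, against 8.19, 7.93 and 7.97 with dexamethasone (-0.45 ± 0.3, and 0.08 within batch C). Dnajb9 had 10.57, 10.33 and 10.32, also without overlap (-0.35 ± 0.17, adjusted p = 0.5). Dnajc30 was 9.54, 9.19 and 9.18, below every dexamethasone array by a narrow margin (-0.37 ± 0.18). Hsf1, by contrast, had 9.8, 10.04 and 9.83 and so remained near its dexamethasone level (-0.06 ± 0.19, 95% interval -0.48 to 0.37). The tested probe sets of Hsf2 stood at -0.38 ± 0.22 (the brightest), -0.85 ± 0.45 and -0.22 ± 0.27. For the one at -0.85 the adjusted p was 0.544, and 0.119 with batch as a block. Within batches that probe set gave -0.92 (A), -0.75 (B) and -0.87 (C).

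The largest positive values were those of Dnajc11 (0.77 ± 0.24, adjusted p = 0.273, its other probe set 0.18), Hspa4 (0.56 ± 0.41), Hspd1 (0.44 ± 0.22), Dnajc22 (0.42 ± 0.25) and Dnajc7, a J protein that binds both HSP70 and HSP90 (0.37 ± 0.2). Within batch A Dnajc11 stood at 0.01 and Dnajc22 at -0.05, and within batch C Hspd1 stood at -0.01. Hspd1 was at 12.65, 12.54 and 12.52 in the combination, close to its vehicle values. Hspe1 was at 13.06, 13.11 and 13.25 in the combination, above every dexamethasone array by a narrow margin, the highest of those being 13.05. Its log2 change was 0.19 ± 0.17 (adjusted p = 0.747). The log2 change of Hsp90ab1 was -0.27 ± 0.17 and that of Hspa5 -0.36 ± 0.26, both with overlapping arrays.

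Cryab and Hspb6 had their 2 lowest signals of the 9 arrays in combination replicates 1 and 3. Cryab was 13.65, 14.26 and 13.89 with the combination (-0.46 ± 0.21 from dexamethasone, adjusted p = 0.471) and Hspb6 was 13.91, 14.15 and 13.68 (-0.34 ± 0.19, adjusted p = 0.586). Hspb7 was 10.11, 11.99 and 8.71 (-1.53 ± 0.9, adjusted p = 0.603), with -2.39 to -0.75 over the alternatives. This probe set of Hspb7 was itself lower in the 2 arrays of batch C than in the other 4 hormone-treated arrays, by a log2 difference of -2.46. The signal of Hspa2 was 6.17, 7.88 and 7.25 (-0.71 ± 0.4, but 0.44 within batch B). In each of these genes combination replicate 2 was the highest of its group. Hspb2 and Hspb3 did not share that order, with 9.37, 9.77 and 9.97 and with 10.9, 11.05 and 11.27. Hspb1 was 13.1, 13.35 and 12.71 (-0.31 ± 0.23), and Hspb8 was 12.53, 12.58 and 11.73 (0.02 ± 0.29). Of the 7 small heat shock genes of muscle, 3 had a log2 change from dexamethasone above 0 and 4 below.

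Slow fibre genes were low in combination replicates 1 and 3. Of 9 slow fibre contractile genes, 8 had their lowest signal of all arrays in combination replicate 1 and 8 their second lowest in combination replicate 3. Relative to the vehicle mean the list median was -5.12, -0.09 and -1.27 in combination replicates 1, 2 and 3, against 0.07, 0.44 and 0.29 with dexamethasone. The summed signal ran from 3977 to 101418 with the combination, from 115669 to 141287 with dexamethasone and from 99808 to 125473 with vehicle. Small heat shock proteins are known as more abundant in slow, oxidative muscle, and the part of fibre content in their values was not tested. Bag3 and Flnc also had their highest combination signal in replicate 2, and for them the part of fibre content was not tested either.

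**Figure D3:**
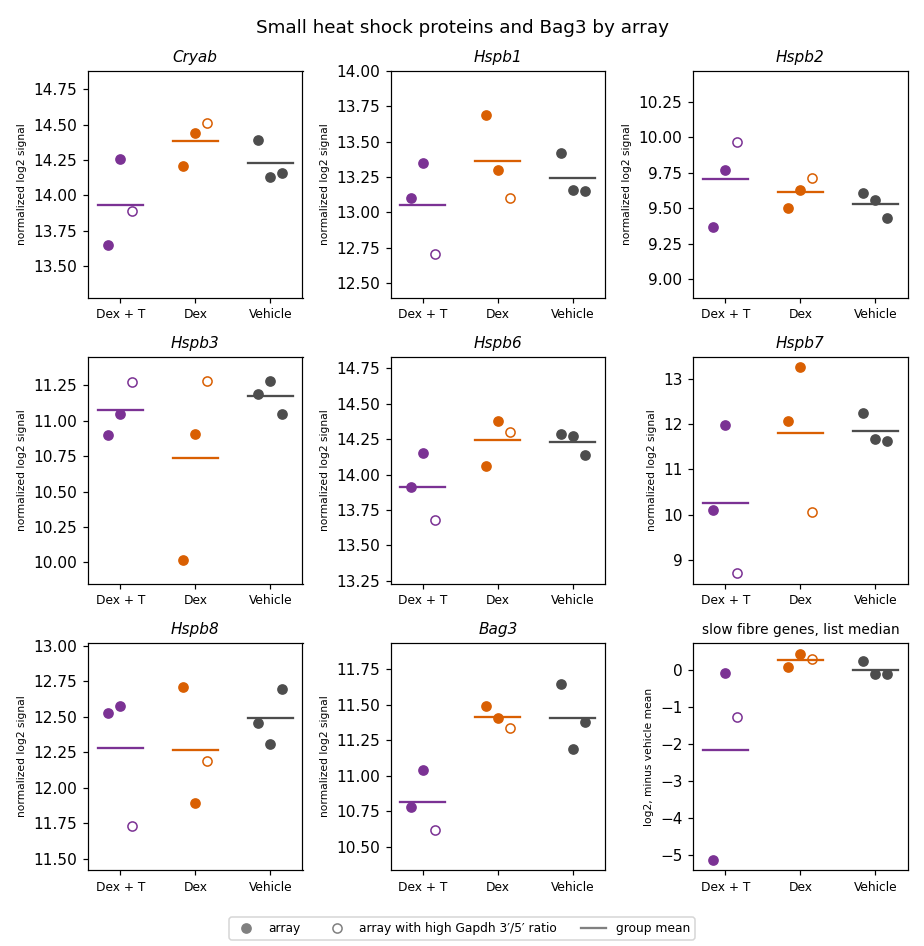
Normalized log2 signal per array of 7 small heat shock protein genes and Bag3, and the median of the slow fibre gene list relative to the vehicle mean, with the combination (Dex + T), dexamethasone (Dex) and vehicle from left to right; lines are group means and open circles the 2 arrays with high Gapdh 3′ to 5′ ratios. Combination replicate 1 is lowest in the slow fibre list at -5.12, and the 3 combination arrays of Bag3 lie below all others.

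Under both hormones no member differed from vehicle by limma's adjusted test, and neither did any other probe set (0% of 18625 in either direction). At an unadjusted p under 0.05 there were 4 higher members and 1 lower (4.49% and 1.12%, against 3.16% and 2.95% of all probe sets). The arrays did not overlap for 10 higher and 3 lower members (11.2% and 3.37%, against 7.53% and 5.79%). With batch as a block the counts were 0 as well (0% of all probe sets). The member median was 0.05, beside 0.02 over all probe sets, and 50 members were above 0 and 39 below (52.2% and 47.8% of all probe sets).

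Hsf1 was also higher with the combination than with vehicle, by 0.7 ± 0.19 (1.62-fold, adjusted p = 0.802), with no overlap of the arrays. Batch A gave 0.65 and batch B 0.76. Dnajb12 stood 0.73 ± 0.33 above vehicle, Hspb9 0.59 ± 0.49, Hspa4 0.55 ± 0.41 and Dnajc22 0.54 ± 0.25, while Dnajc3 stood 0.43 ± 0.27 above it. On the negative side were Hspb7 (-1.57 ± 0.9), Bag3, Dnajc1 (-0.52 ± 0.43), Dnaja4 (-0.51 ± 0.33) and Dnajb6 (-0.46 ± 0.29). Batch as a block moved Hspb7 to -0.89, Dnajc1 to -0.95, Dnaja4 to -0.3, Hspb9 to 0.37 and Hspa4 to 0.33. Within batch B Hspb7 (0.33) and Hspb9 (-1.06) had the opposite sign, and Hspb7 ran from -2.43 to -0.78 over the alternatives.

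Probe sets of the same gene differed in how low they were in the 2 arrays of batch C. Of the 89 tested members, 10 were lower by more than 1 on the log2 scale in these 2 arrays than in the other 4 hormone-treated arrays (11.2%, against 6.97% of all tested probe sets). Among the 19 genes with several tested probe sets, 9 of 25 dimmer probe sets were that low, against 1 of 19 brightest ones, that of Hspb7; the brightest was chosen by its mean over arrays that include these 2, which favours that order.

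Hsp90ab1 gives the plainest case. One of its probe sets was 13.42 in combination replicate 3 and 13.62 in dexamethasone replicate 3, within the range of the other arrays, while the other was 7.17 and 8.12, against 11.55 to 12.74 in the remaining 7. The pattern recurred in Dnaja4, whose dimmer probe set was 5.86 and 6.09 in those arrays and 8.76 to 11.12 elsewhere, and in Hspb8, with 6.95 and 8.18 against 10.01 to 10.64. That probe set of Hspb8 was 10.01, 10.27 and 8.18 with dexamethasone, against 10.31, 10.64 and 10.32 with vehicle, without overlap (-0.94 ± 0.88, but -0.06 with batch as a block). For Hspa9 the second brightest probe set was 7.31 and 7.74 against 9.29 to 10.65. The Gapdh ratios of 6.22 and 4.94 and beta-actin ratios of 7 and 4.73 (1.51 to 2.25 in the other 7 arrays) moved with these drops, and their part in them was not tested. The log2 changes of these dimmer probe sets with dexamethasone, -0.95 ± 1.4 for Hsp90ab1 and -1.74 ± 1.4 for Dnaja4, include the low signal of dexamethasone replicate 3.

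Several genes had a dimmer probe set whose sign differed from that of the brightest. For dexamethasone against vehicle these were, beside Hsp90ab1 and Dnajc11, Dnajc7 (0.94, against -0.28 by the brightest), Dnajc1 (0.04 and 0.54, against -0.37), Hspa9 (0.39, against -0.17) and Hspb7 (0.38, against -0.05). For the combination against dexamethasone they included Dnajc7 (-0.76, against 0.37), Hsph1 (-0.27, against 0.13), Hspb8 (-0.29, against 0.02), Dnaja4 (0.24, against -0.06), Hspa9 (0.27, against -0.09) and Dnajc1 (0.28, against -0.15). For the combination against vehicle they included Dnajc1 (0.32 and 0.05, against -0.52), Dnaja1 (0.16, against -0.34), Dnajb1 (-0.46, against 0.07), Hspa2 (0.22, against -0.29) and Hspa9 (0.15, against -0.26). None of these probe sets passed the test.

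**Figure D4:**
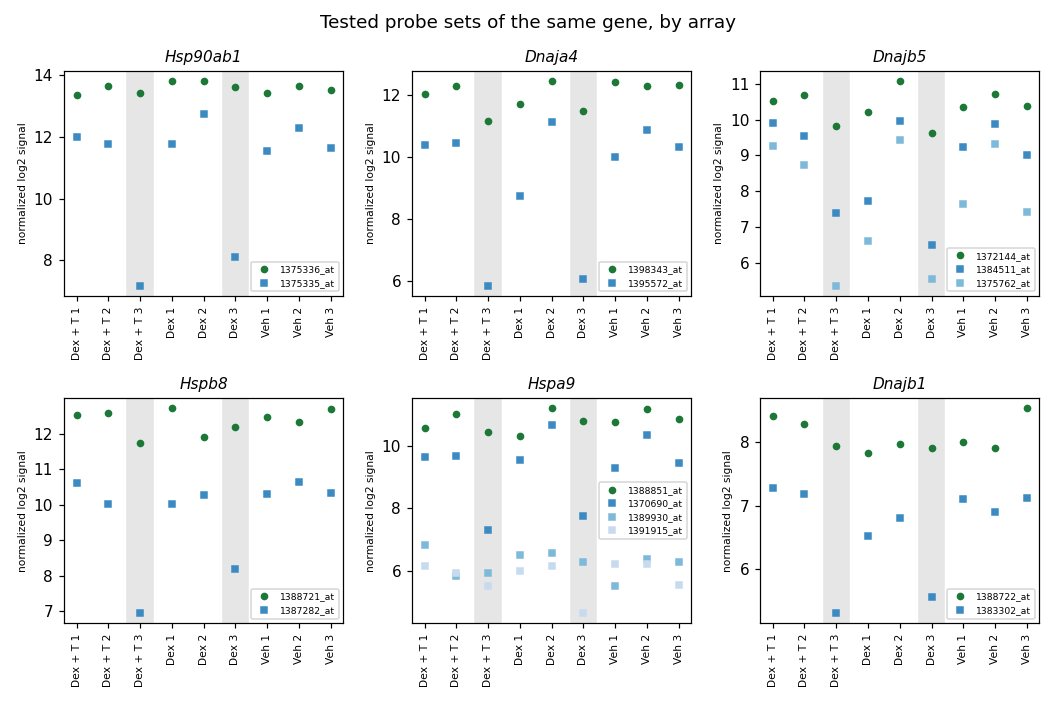
Normalized log2 signal of each tested probe set of 6 genes by array, with the brightest probe set in green circles and the others in blue squares; the combination (Dex + T) is on the left, then dexamethasone (Dex), then vehicle (Veh). Grey bands mark the 2 arrays with high Gapdh 3′ to 5′ ratios, where the dimmer probe set of Hsp90ab1 is at 7.17 and 8.12 while the brightest one stays above 13.

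No co-chaperone or chaperonin gene outside the family passed the test in any comparison. Of 26 co-chaperones of HSP90 and HSP70, 24 had a tested probe set, and their median log2 change was -0.05 for the combination against dexamethasone, 0.07 for dexamethasone against vehicle and 0.07 for the combination against vehicle. The one furthest above vehicle with dexamethasone was Fkbp5, a glucocorticoid-induced inhibitor of the receptor complex, with 10.49, 11.56 and 9.71 with dexamethasone, against 9.03, 8.19 and 8.3 with vehicle (2.08, adjusted p = 0.12). Its relative Fkbp4, which aids the receptor, had a log2 change of -0.3 (adjusted p = 0.717), and Stip1, which links HSP70 to HSP90, one of -0.35 (adjusted p = 0.575). The cytosolic chaperonin and prefoldin list, 13 of 14 genes measured, had medians of -0.13, 0.04 and -0.06 in the same order.

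J proteins with special tasks did not pass the test. Dnajc5, the cysteine string protein of vesicles, Dnajc6 (auxilin) and Dnajc13, which acts on endosomes, had log2 changes with dexamethasone of 0.36, 0.15 and 0.07. Those of the ribosome, splicing and chromatin, namely Dnajc2, Dnajc21, Dnajc8, Dnajc9 and Dnajc17, had a median of 0.26, with values from -0.21 to 0.71. In the combination against dexamethasone the medians were 0.11 over the first 3 genes and 0.02 over the other 5.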

How the data were processed

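Total RNA of 9 gastrocnemius samples was hybridised to Affymetrix rat 230-2 arrays, per the labels, with 1 array per animal. The authors deposited a linear intensity for each probe set; the signal algorithm is not given in the sources used here. Array medians of log2(intensity + 16) spanned 1.82, so the values were not on a common scale, and they were quantile normalized after 57 control probe sets had been left out. On this scale low signals give fold changes that are too small. Testing was limited to signals at or above the 40th percentile of the mean. All 9 arrays were fitted with a mean per group in limma 3.58.1 (R 4.3.3; lmFit, eBayes), with Benjamini-Hochberg adjustment in each comparison; every p and SE is from this fit. The fit was tested on simulated arrays with independent noise, no batches and changes larger than those of the members. That test therefore does not bear on differences of the size seen in the members. The number of arrays limits the precision.

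Symbols are those of the platform annotation, updated by gene ID to GRCr8; a gene is represented by its brightest probe set. Technical batches were set from the deposited scale and spike signals after these had been seen. A rule named a set of well-known members, every member past the threshold (there were none) and the 5 largest rises and falls in each comparison. Dnajc30, the other probe sets and genes named from lists were chosen after their values were seen. Members and lists were chosen with earlier results of these data known. Lists are described by counts and medians. Alternatives covered normalization, pseudocount, filter, variance model, groups in the fit, batch, replicate number and leaving out each array.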

Additional observations from a re-analysis of the deposited data

How the results depend on the processing

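The count of 0 members past the threshold in the combination against dexamethasone, and against vehicle, was 0 under every alternative run. Over all probe sets the calls ran from 0 to 149 in the first of these comparisons and were 0 throughout in the second, where the 0 says nothing of the members. For dexamethasone against vehicle it was 2 with a pseudocount of 64, 3 with a filter at the 60th percentile and 4 under robust variance with an intensity trend, all higher, and 0 to 1 when single arrays were left out. Over all probe sets these settings called 414, 469, 510 and 1 to 340, beside 196. The 4 were Dnajc3, Dnajb12, Dnajb9 and Hsf1, with adjusted p of 0.0231, 0.0343, 0.0485 and 0.0466. Over the 20 alternatives the log2 change of Dnajc3 ran from 1.13 to 1.64 (adjusted p 0.0231 to 0.212, past the threshold in 4, among them without combination replicate 3 at 0.0389), that of Dnajb12 from 1.12 to 1.7 (0.0343 to 0.247, past in 3), that of Hsf1 from 0.64 to 1.13 (0.0466 to 0.316, past in 2) and that of Dnajb9 from 0.59 to 1.04 (0.0485 to 0.3, past in 1). Bag3 in the combination against dexamethasone ran from -0.72 to -0.5 (adjusted p 0.154 to 0.703), and Hspb7 with dexamethasone had the opposite sign in 6 of 20.

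Median centring in place of quantile normalization moved the median of all probe sets to 0.2 and that of the members to 0.35 for dexamethasone against vehicle, to 0.19 and 0.25 for the combination against vehicle, and to -0.04 and -0.13 for the combination against dexamethasone. The member median of the last comparison was 0 without batch C, and that of the combination against vehicle was 0 with a filter at the 60th percentile. Leaving out single arrays gave member medians from 0.03 to 0.08 for dexamethasone against vehicle, from -0.13 to -0.03 for the combination against dexamethasone and from 0 to 0.07 for the combination against vehicle.

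Same-numbered arrays did not deviate together throughout (correlations of 0.06, 0.37 and 0.59 between the combination and dexamethasone, 0.03, 0.3 and 0.11 between dexamethasone and vehicle, and -0.2, 0.14 and 0.06 between the combination and vehicle), and the numbers were not taken to pair the animals. Except for vehicle replicate 3, same-numbered arrays also share a batch, so these correlations cannot tell pairing from batch. A replicate block differs from the batch block only in where it places vehicle replicate 3. The calls over all probe sets still differed. Under the batch block they were 179 for dexamethasone against vehicle and 22 for the combination against dexamethasone. With the replicate number as a block, 0 members passed in each comparison and the medians were 0.07, -0.06 and 0.05. Over all probe sets that block called 13 for dexamethasone against vehicle and 0 for the combination against either group. Where no probe set was called, the 0 says nothing of the members.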
